A study of Mus musculus with 33 samples.

Results

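Arntl, Clock, Npas2, Rora and Rorb, the activating arm of the mouse circadian clock, were followed at the RNA level across frontal cortex samples from mice that had slept, had been kept awake or had slept again after deprivation. The 5 genes were picked by symbol for their role in the clock, by a rule that sets no threshold on their values, from the 21565 genes of a table of CPM, read counts scaled to the library total, and all 5 were above the filter on low values in every comparison. CLOCK and its paralogue NPAS2 each pair with BMAL1, the product of Arntl, and these dimers bind E-box elements to switch on genes that include the Per and Cry repressors and the nuclear receptors of the ROR and REV-ERB families. ROR proteins bind RORE elements and activate Arntl, while the REV-ERB proteins, products of Nr1d1 and Nr1d2, bind the same elements and repress it. In the cortex, Rorb is a familiar gene of layer 4 neurons, and Rora is expressed in several neuron types.

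Samples came from 33 adult male mice of 8 to 19 weeks on a C57BL/6J background, all collected at ZT 6, so no other time of day was measured. Constant dark began 36 hr before the experimental day. Wild-type (WT) mice slept ad libitum (CS, n = 6), were kept awake on a treadmill for 6 hr (SD, n = 7) or had 2 hr of recovery sleep after 4 hr of deprivation (RS, n = 7). Mef2c f/f mice carry loxP sites around exon 11 of both copies of Mef2c, a transcription factor gene, and served as the controls (CS, n = 4, and SD, n = 3) of Mef2c-cKO mice (CS, n = 3, and SD, n = 3), which have the same floxed alleles and a Camk2a-Cre transgene that acts in forebrain excitatory neurons. The deletion is therefore partial in cortical tissue, and the study's methods state that some Mef2c-cKO mice also carried a germline recombined allele. No source used here says more of how the numbered samples of a group relate, so p-values measure the spread between these samples.

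Levels are given as rescaled CPM, that is the authors' CPM divided by a factor per library that makes the typical gene equal between libraries. Recovered totals went from 18935045 to 249046089 reads per library, and the group medians were higher in the WT groups, although 1 Mef2c-cKO SD library, replicate 7, was deeper than 10 of the 20 WT libraries. Between 1236 and 185841 reads lay behind each value of the 5 genes, which leaves a counting error that is small beside the spread between samples. A gene was called changed (a DEG) at a limma adjusted p up to 0.05 if its log2 fold change was 0.3 or more in either direction, on the log2(rescaled CPM + 0.5) scale. In a piece of tissue, fewer cells of a type and less RNA per cell cannot be told apart.

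The genes lie on 5 chromosomes. In the GRCm38 assembly with the GENCODE M21 annotation, Arntl spans chr7:113207465-113314126 on the plus strand, Clock chr5:76209868-76304792 on the minus strand, Npas2 chr1:39193731-39363236 on the plus strand, Rora chr9:68653786-69388246 on the plus strand and Rorb chr19:18930605-19111196 on the minus strand. Their longest protein-coding transcripts have 2976 bases in Arntl, 9744 in Clock, 4236 in Npas2, 10878 in Rora and 9293 in Rorb. The GC content of these transcripts was 47.7% in Arntl, 40.9% in Clock, 52.3% in Npas2, 40.9% in Rora and 41.6% in Rorb, a property that comes back with the comparison of CS and SD. No gene that overlaps them in the annotation was listed in the table.

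Start regions from RefSeq (GRCm38.p6, 250 bases before to 50 after an annotated start) were searched on both strands, 9 regions for the 5 genes. The RORE, the element that RORα and RORβ recognise, was found in 0.384% of 32851 such mouse regions and, among the 5 genes, in 1 of the 2 Arntl regions. It is shown because the set holds both the genes of receptors that bind this element and Arntl, their textbook target, and the match describes letters in this window, not a site in use. The match starts 26 bases after the annotated start and lies at the centre of chr7:113207528-113207556 on the plus strand, with the element in capitals, of which the letters AGGTCA are also the shorter ROR half-site.
Arntl start region: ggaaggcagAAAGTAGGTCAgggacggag
The half-site AGGTCA alone was found in 16.3% of all regions and also in 1 of the 3 Clock regions, on the opposite strand. The E-box CACGTG (7.15% of all regions), the cAMP response element TGACGTCA (1.79%) and the MEF2 motif (3.19%) were not matched in any of the 9 regions. The 250 bases before the start of Rora (chr9:68653536-68653785, plus strand, 61.2% GC) and of Rorb (chr19:19111197-19111446, minus strand, 66% GC) are shown because these were the genes lower in Mef2c-cKO mice under SD as well as, for Rora, under CS. No base is in capitals, as none of the searched motifs was matched.
Rora: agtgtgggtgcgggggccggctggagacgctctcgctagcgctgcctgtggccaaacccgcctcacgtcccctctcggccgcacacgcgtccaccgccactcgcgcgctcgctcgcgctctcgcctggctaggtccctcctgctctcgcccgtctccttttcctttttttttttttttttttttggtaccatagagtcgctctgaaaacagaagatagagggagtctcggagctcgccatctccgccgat
Rorb: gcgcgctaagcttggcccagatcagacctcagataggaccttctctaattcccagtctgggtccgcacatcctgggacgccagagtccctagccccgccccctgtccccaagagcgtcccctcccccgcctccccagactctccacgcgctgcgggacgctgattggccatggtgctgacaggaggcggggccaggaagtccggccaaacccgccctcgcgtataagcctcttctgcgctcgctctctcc

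Per kilobase of transcript, Rora was the most abundant of the 5 in every group. In WT mice under CS its mean was 79.2 ± 20.2 CPM per kb (mean ± s.d., n = 6), against 35.8 ± 4.17 for Npas2, 30.7 ± 6.70 for Rorb, 26.9 ± 6.20 for Clock and 24.9 ± 1.97 for Arntl. Rorb, Clock and Arntl, the last 3 in that order, differed from their neighbours by less than the larger s.d. Arntl2, the paralogue of Arntl outside the set, stood at 7.80 ± 0.730 CPM per kb.

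Across the 7 groups, most steps between groups next to each other in level were within the spread (see the plot of levels by group). Arntl had its highest mean in WT CS (74.1 ± 5.88 rescaled CPM) and its lowest in Mef2c-cKO CS (47.6 ± 6.04, n = 3), and in the order of the means only the first 2 groups, WT CS and Mef2c f/f CS (68.0 ± 5.17, n = 4), differed by more than the larger s.d. For Clock, WT CS (262 ± 60.4) stood first and the other 6 groups had means between 181 and 206, with no neighbours in the order farther apart than the larger s.d. Npas2 descended from WT CS (152 ± 17.7) to Mef2c-cKO CS (92.8 ± 15.2), again without a step beyond the s.d. Rora showed the widest step of all, from WT RS (598 ± 124) down to Mef2c-cKO SD (390.0 ± 68.5) and CS (373 ± 17.5), and no library of either Mef2c-cKO group reached the lowest WT RS library. Rorb was highest in WT CS (285 ± 62.2) and Mef2c f/f SD (265 ± 29.4), which exceeded Mef2c f/f CS (207 ± 19.5) by more than the larger s.d., and lowest in Mef2c-cKO SD (144 ± 23.8). WT and Mef2c f/f values set side by side here come from libraries whose CPM were computed over different gene sets. The rescaling takes out the library total. It does not take out other differences between the WT and Mef2c libraries, such as depth.

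**Figure D1:**
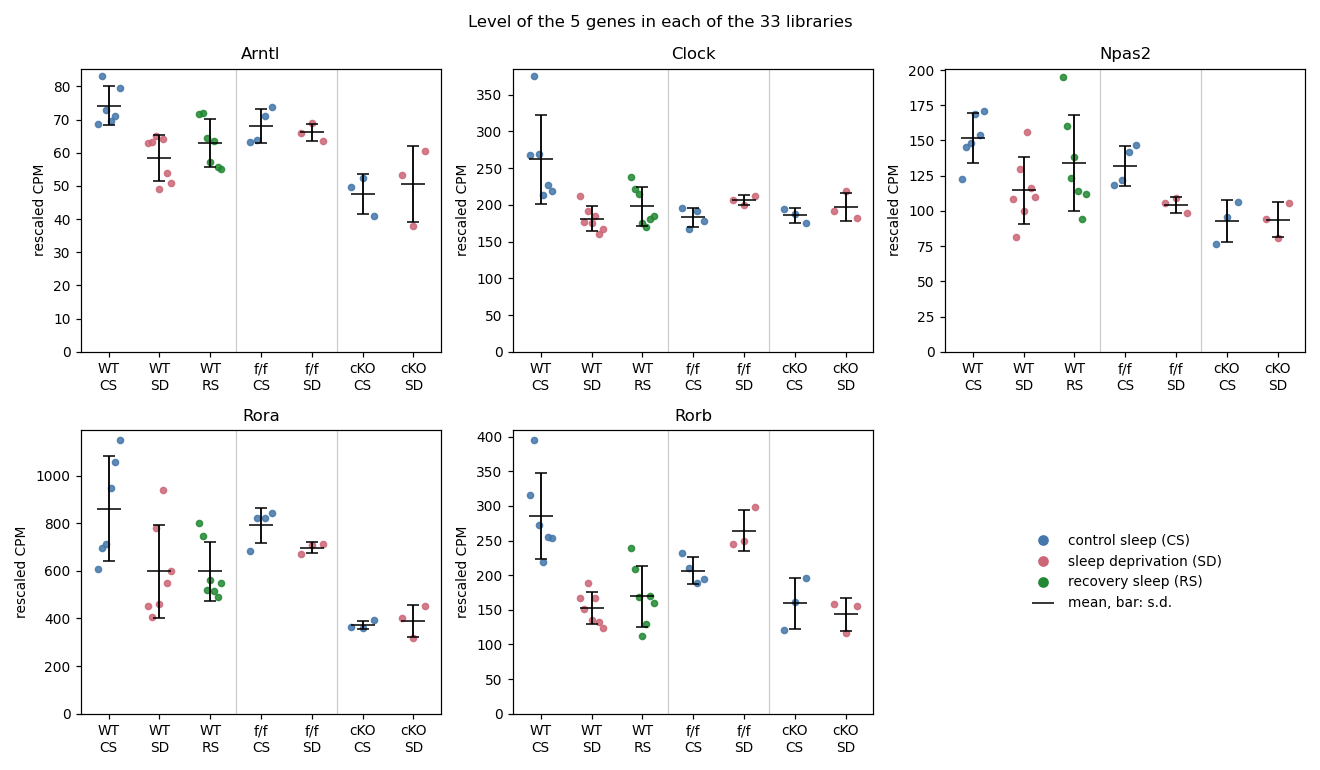
Rescaled CPM (y axis, from 0) of Arntl, Clock, Npas2, Rora and Rorb in each of 33 libraries, by group (x axis), with the mean and s.d. of each group in black. Both Mef2c-cKO groups lie at 317 to 453 rescaled CPM for Rora, below every library of the other groups apart from the 2 lowest of WT SD, and the mean of WT CS is the highest of the 7 for each of the 5 genes on this scale.

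The targeted gene, Mef2c, had 1085 to 2019 rescaled CPM (median 1345) in WT CS, 682 to 969.9 rescaled CPM (median 817) in SD and 647 to 1213 rescaled CPM (median 976) in RS. In Mef2c f/f mice it stood at 1207, 1098, 1203 and 1080.1 under CS and 1249.7, 1135 and 1406 under SD, and in Mef2c-cKO mice at 957, 1608 and 1727 under CS and 1499.8, 1116 and 1317 under SD. The genotypes overlapped, but reads from all exons enter a gene-level value, so it does not check the deletion of exon 11.

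Markers of cortical tissue were present, and all 6 excitatory neuron markers were at or above 1 CPM in every library. Of 6 markers of layer 4, where Rorb is a familiar gene, 3 were called lower in WT SD and none higher, beside 20.5% of all genes called lower, and 3 were not called, of which Scnn1a (0.22) and Cux2 (0.10) had the opposite sign. Between Mef2c-cKO and Mef2c f/f mice, 4 of 6 were called lower in CS and 4 of 6 in SD, beside 4.5% and 5.99% of all genes. In CS the count was 3 in CPM as deposited and 2 after a correction for GC content, and in SD it stayed 4 in both, with 1 marker, Unc5d, then called higher. Their summed level was 1033 to 1344 rescaled CPM in WT CS, 687 to 1042 in SD and 659 to 1099 in RS, 843 to 984 and 888 to 927 in Mef2c f/f CS and SD, and 654 to 716 and 762 to 905 in Mef2c-cKO CS and SD, with none of the 6 at 0. The 6 markers of the striatum, which lies beneath the cortex, ranged from 201 to 906 in sum over the libraries, none at 0. One Mef2c-cKO CS library, replicate 8, stood apart with a summed microglial level of 436 against 137 to 212 in the WT and Mef2c f/f CS groups. Of the other lists in WT SD, 2 of 4 markers of meninges, 2 of 6 each of striatum, thalamus, inhibitory neurons and astrocytes, 2 of 7 of vessels and 1 of 6 each of excitatory neurons, oligodendrocytes and microglia were higher, while 2 of 7 of vessels and 1 of 6 each of excitatory neurons, oligodendrocytes and microglia were lower, beside 24.6% of all genes higher and 20.5% lower. In CPM as deposited, 6106 of 12913 genes were called higher and 801 lower, and the counts also leaned to higher calls. They were 5 higher and 0 lower for oligodendrocytes, 4 and 1 for microglia and 3 and 1 for excitatory neurons. For inhibitory neurons they were 4 and 0, and for vessels 3 and 0. In Mef2c-cKO against Mef2c f/f mice in SD, 2 of 6 excitatory neuron markers were lower and none higher, 3 inhibitory neuron markers were higher and 1 lower, 4 of 6 microglial and 2 of 6 astrocyte markers were higher and 1 of 6 oligodendrocyte markers was lower, beside 9.1% of all genes higher and 5.99% lower. Thalamic markers had 1 call in each direction there, and 1 of 7 vessel markers was higher. In CS, 2 of 4 meningeal, 2 of 6 oligodendrocyte, 1 of 6 inhibitory neuron and 1 of 6 astrocyte markers were higher and 1 of 6 thalamic and 1 of 7 vessel markers lower, beside 3.17% of all genes higher and 4.5% lower. The part of the cell makeup in the results on the 5 genes was not tested.

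The first comparison asked what the loss of sleep did to the activators in WT mice. All 5 genes were lower in SD than in CS by the test on rescaled CPM, beside 45.1% of all genes called in that comparison and 20.5% called lower, but in the authors' CPM as deposited, where the median of all genes rose by 0.30 rather than 0.04, only Rorb was called (beside 53.5% of all genes), and after a correction for GC content Clock and Rora were no longer lower. The median log2 fold change of the 5 was -0.51.

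Among the partners of the activating dimer, Arntl had 68.5 to 83.1 rescaled CPM (median 72.0) in CS and 49.1 to 65.1 rescaled CPM (median 62.9) in SD. The groups did not overlap, as for 15.1% of all genes, although the lowest CS library was only just above the highest SD library (log2 fold change -0.34, SE 0.089, limma adjusted p = 0.00803). Clock had 213 to 375 rescaled CPM (median 247) in CS and 161 to 211 rescaled CPM (median 176) in SD (log2 fold change -0.51, SE 0.12, limma adjusted p = 0.00544). These groups also stood apart, by a small gap, with 1 CS library, replicate 2, far above the other CS libraries. Without that library the difference was -0.40 (limma adjusted p = 0.00374). Npas2 had 122 to 171 rescaled CPM (median 151) in CS and 81.3 to 156 rescaled CPM (median 109.5) in SD, with overlap between the groups (log2 fold change -0.42, SE 0.13, limma adjusted p = 0.0167).

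Of the receptors, Rorb had 219.8 to 395 rescaled CPM (median 264) in CS and 123 to 188 rescaled CPM (median 151) in SD, and every SD library was below every CS library. On rescaled CPM the fall of Rorb was the largest of the 5 (log2 fold change -0.89, SE 0.13, limma adjusted p = 0.000615). After the correction for GC content given later, Npas2 fell further than Rorb. Rora had 608 to 1148 rescaled CPM (median 830.4) in CS and 407 to 941 rescaled CPM (median 551) in SD (log2 fold change -0.55, SE 0.20, limma adjusted p = 0.0375). The Rora groups overlapped widely, with 3 of the 6 CS libraries inside the SD range, and the call was lost when any of 8 of the 13 libraries was left out, namely CS replicates 4 to 6 or SD replicates 1, 2, 4, 8 and 9 (-0.56 to -0.46, limma adjusted p from 0.0539 to 0.0754). The other 4 genes stayed called in each of the 13 fits. Of the 6 layer 4 markers, 3 were called lower in the same comparison (2 in CPM as deposited) and 3 were not called. Their part in the Rorb result was not tested.

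Base composition moved with these changes. Across 12443 genes, the log2 fold change from CS to SD had a Spearman correlation of 0.729 with the GC content of the transcript, a description over genes that are not independent, with genes of low GC content toward lower values in SD. Genes within 1 percentage point of the GC content of Clock had a median log2 fold change of -0.387, those near Rora -0.388, those near Rorb -0.361, those near Arntl -0.122 and those near Npas2 0.150. On rescaled CPM, Clock and Rora lay near the medians of genes of like composition, while Rorb and Npas2 lay further below theirs (see the plot beside genes of like GC content). After a spline on GC content and length was taken out of each library, 21.6% of genes were called, and of the 5 only Npas2 (-0.49, limma adjusted p = 0.00732) and Rorb (-0.38, limma adjusted p = 0.00387) were. Arntl stood at -0.20 (limma adjusted p = 0.0590), Clock at 0.029 (0.747) and Rora at 0.0042 (0.991).

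**Figure D2:**
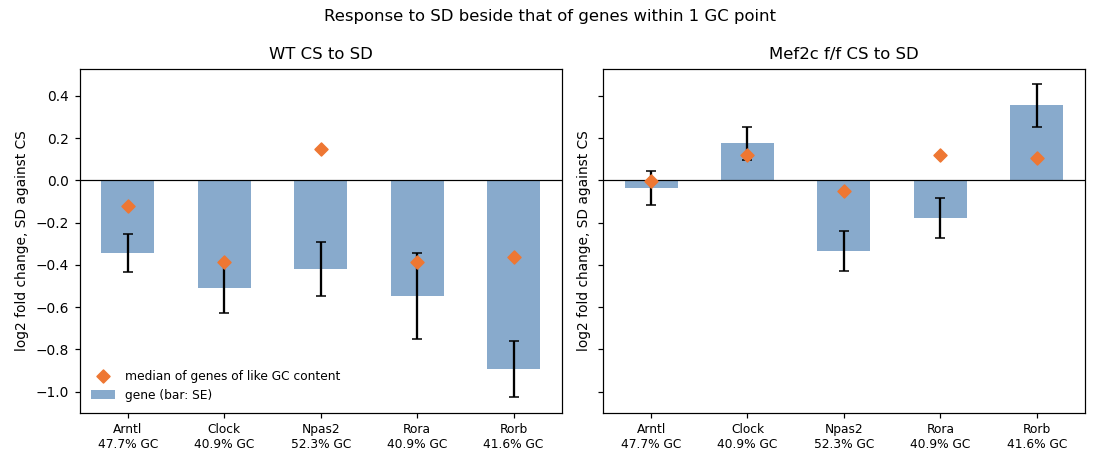
log2 fold change of SD against CS (y axis, bars with SE) of each gene in WT and Mef2c f/f mice, beside the median of genes within 1 percentage point of its GC content (diamonds). In WT mice Clock (-0.51) and Rora (-0.55) lie near their diamonds at -0.387 and -0.388, and Rorb (-0.89) lies below its own at -0.361.

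**Figure D3:**
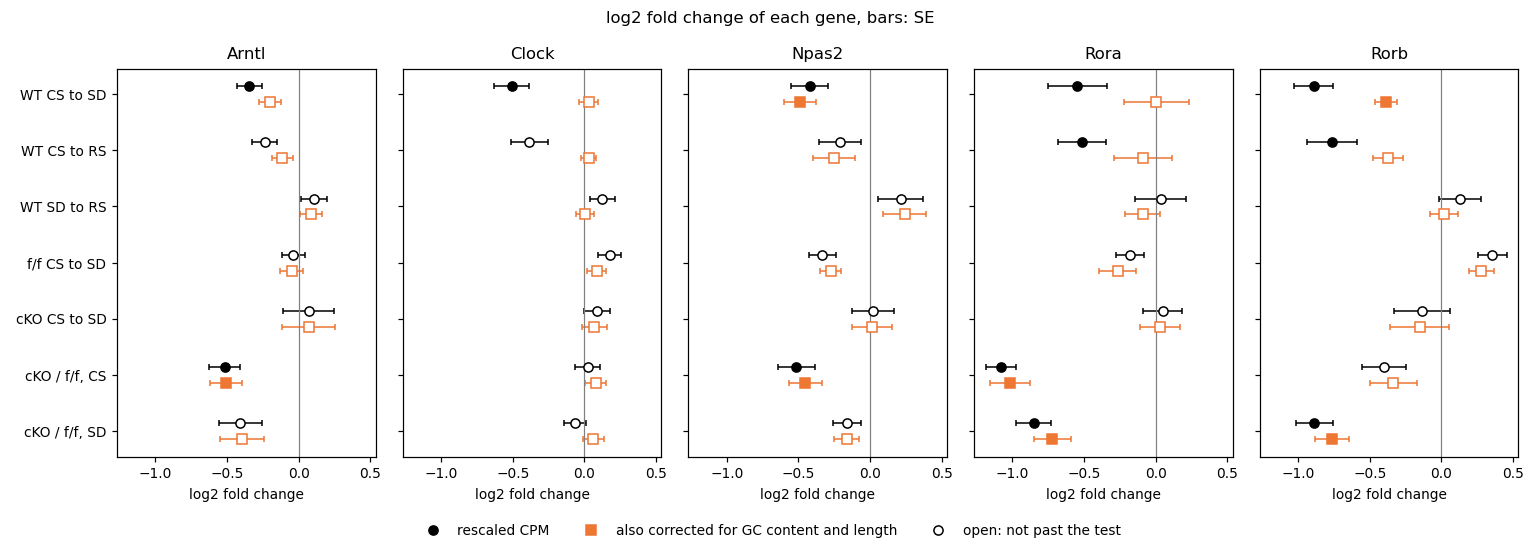
log2 fold change (x axis) of each gene in 7 comparisons (y axis) with SE bars, from rescaled CPM (black circles) and after correction for GC content and length (orange squares), filled where the gene was called. The correction moves Clock and Rora in WT CS to SD from -0.51 and -0.55 to 0.029 and 0.0042, while Rora in Mef2c-cKO against Mef2c f/f mice stays called in both sleep states.

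Recovery sleep was compared next, with CS and with SD, and both comparisons share groups with the first. Against CS, Rora and Rorb were called lower and the partners of the dimer were not, beside 17.5% of all genes called and 8.22% lower. Clock missed the threshold narrowly (limma adjusted p = 0.0510). After the correction for GC content none of the 5 was called (4.15% of all genes), with Clock at 0.029, and the fold changes of all genes had a Spearman correlation of 0.721 with GC content. Of 5 tested layer 4 markers, 3 were lower in RS too, but only 1 in CPM as deposited and 1 after the correction. Their part was not tested. Rorb had 111 to 239.9 rescaled CPM (median 168) in RS (log2 fold change -0.76, SE 0.17, limma adjusted p = 0.0329), and 1 RS library fell within the CS range. Rora had 489 to 803 rescaled CPM (median 548) (log2 fold change -0.51, SE 0.17, limma adjusted p = 0.0478). Both adjusted p-values were near the threshold, and leaving out any of 8 of the 13 libraries for Rorb (CS replicates 1 to 3 and RS replicates 3 to 6 and 12, -0.77 to -0.66), or any but RS replicates 1 and 2 for Rora (-0.60 to -0.42), took them past it.

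Clock had 169 to 238 rescaled CPM (median 185) in RS (log2 fold change -0.38, SE 0.13, limma adjusted p = 0.0510), Arntl 55.1 to 72.1 rescaled CPM (median 63.5) (log2 fold change -0.24, SE 0.085, limma adjusted p = 0.0560) and Npas2 94.5 to 195 rescaled CPM (median 123) (log2 fold change -0.21, SE 0.15, limma adjusted p = 0.264). Each of these RS groups overlapped the CS group. Between SD and RS none of the 5 was called, as for nearly all genes (limma called 0.0232%, that is 3 of 12921 genes, with 683 at an unadjusted p up to 0.05). From SD to RS, the differences on the log2 scale were 0.21 (SE 0.16) for Npas2, 0.13 (0.15) for Rorb, 0.12 (0.087) for Clock, 0.10 (0.088) for Arntl and 0.035 (0.18) for Rora, and the lowest unadjusted p among them was 0.173. The value of Rora turned negative in CPM as deposited (-0.051) and after the correction for GC content (-0.091).

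Ratios within a library do not depend on the scaling between libraries, and they asked whether the members of a pair moved apart. NPAS2 and CLOCK are alternative partners of BMAL1, and the log2 ratio of Npas2 to Clock was -0.77 ± 0.42 in CS, -0.68 ± 0.30 in SD and -0.59 ± 0.24 in RS (mean ± s.d.). The change from CS to SD was 0.0882 (exact two-sided permutation test, p = 0.659, adjusted p = 0.741 over 9 tests). The ratio of Arntl to Clock changed by 0.16 (exact permutation p = 0.167, adjusted p = 0.653) and that of Rora to Rorb by 0.34 (exact permutation p = 0.244, adjusted p = 0.653). None of the 9 tests among the WT groups passed, and the groups overlapped in all 9. After the correction for GC content the first 2 turned to -0.52 and -0.23 without passing the test. The spread of Rora to Rorb in WT CS was wide, from 0.82 to 2.18.

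**Figure D4:**
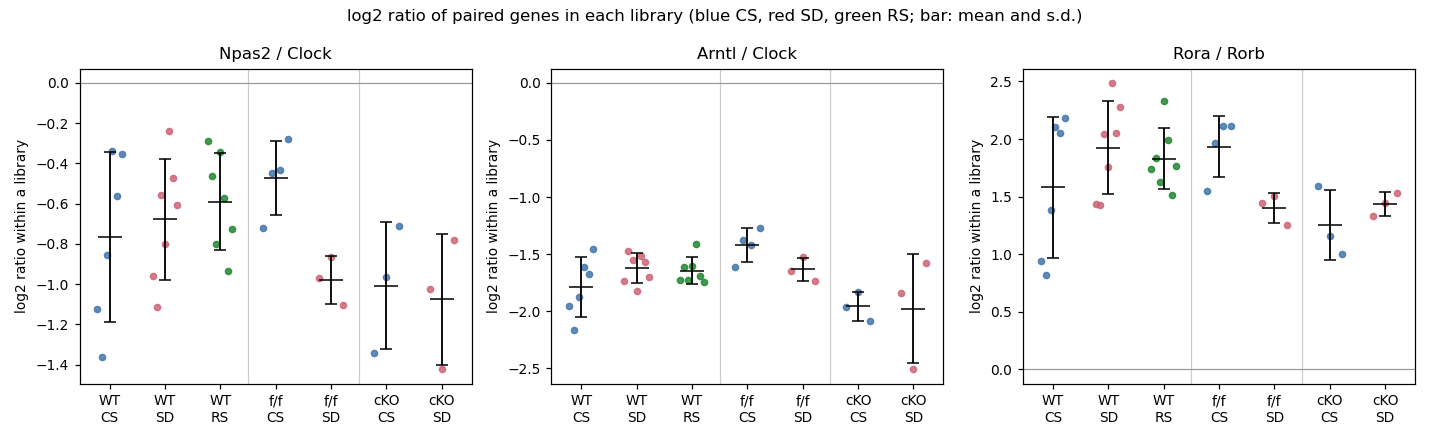
log2 ratio within each library (y axis) of Npas2 to Clock, Arntl to Clock and Rora to Rorb, by group (x axis), with mean and s.d. in black. In WT mice the 3 sleep groups overlap for each ratio, and the Mef2c f/f SD libraries lie at -1.11 to -0.87 for Npas2 to Clock, below the Mef2c f/f CS libraries at -0.72 to -0.28.

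In Mef2c f/f mice, 2 of the ratios separated the sleep states, given as values with no test. Npas2 to Clock was -0.47 ± 0.18 in CS and -0.98 ± 0.12 in SD, and Rora to Rorb was 1.94 ± 0.27 and 1.40 ± 0.13. For single genes, groups that do not overlap made up 17.4% at this size. Genes near Npas2 in GC content had a median log2 fold change of -0.0517 there and those near Clock 0.122. Those near Rora had 0.122 and those near Rorb 0.108. These ratios were not corrected for GC content. In Mef2c-cKO mice the same ratios were -1.01 ± 0.32 and -1.08 ± 0.33 for Npas2 to Clock and 1.25 ± 0.30 and 1.44 ± 0.10 for Rora to Rorb, with overlapping sleep states.

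The response to SD was next examined in Mef2c f/f mice, the control genotype. None of the 5 genes was called by limma, beside 0.0403% of all genes (5 of 12410, with 2111 at an unadjusted p up to 0.05, and 466 called by DESeq2). Npas2 had 118, 122, 142 and 147 rescaled CPM in CS and 106, 109 and 98.3 in SD, with every SD library below every CS library (log2 fold change -0.33, SE 0.094, limma adjusted p = 0.153). Rorb had 233, 210.4, 189 and 195 in CS and 245, 249.9 and 298 in SD, here with every SD library above every CS library (log2 fold change 0.35, SE 0.10, limma adjusted p = 0.153). DESeq2 on the recovered reads called both of these (-0.34, DESeq2 adjusted p = 0.0339 for Npas2 and 0.36, adjusted p = 0.0403 for Rorb). Groups that do not overlap were common at this size (17.4% of all genes).

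Clock had 195, 166, 191 and 178 in CS and 207, 199 and 212 in SD, the SD libraries all slightly higher (log2 fold change 0.18, SE 0.079, limma adjusted p = 0.295). Rora had 682, 822, 821 and 843 and 669.8, 709 and 713, with 1 CS library, replicate 1, within the SD range (log2 fold change -0.18, SE 0.10, limma adjusted p = 0.364). Arntl, at 63.4, 64.0, 71.0 and 73.8 in CS and 66.0, 68.9 and 63.6 in SD, differed least (-0.038, SE 0.080).

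The values of Rorb and Clock lay on opposite sides of 0 in WT and Mef2c f/f mice, and the difference between the responses was tested as an interaction. It was called for Rorb (1.25, SE 0.20, limma adjusted p = 0.00730) and Clock (0.68, SE 0.18, limma adjusted p = 0.0269), the response being the higher one in Mef2c f/f mice, beside 15.1% of all genes called and 9.35% in that direction. Genes near Clock in GC content had a median difference of 0.508 and those near Rorb 0.465. With the correction for GC content, Rorb was still called (0.67, limma adjusted p = 0.0176, beside 1.71% of all genes) and Clock was not (0.061, adjusted p = 0.742). Arntl (0.31, limma adjusted p = 0.0997), Rora (0.37, 0.350) and Npas2 (0.086, 0.752) did not pass. Of the 6 layer 4 markers, 2 were called with a higher response in Mef2c f/f mice (1 in CPM as deposited and 1 after the correction). Their part was not tested. Genotype cannot be told apart here from other differences between the WT and Mef2c f/f libraries, such as depth.

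Loss of Mef2c was examined by comparing Mef2c-cKO with Mef2c f/f mice within each sleep state. Under CS, 3 of the 5 genes were called and all 3 were lower (2 in CPM as deposited and 2 without a filter, Npas2 being lost in each), beside 7.67% of all genes called and 4.5% lower. Under SD, 2 of the 5 were called lower, beside 15.1% called and 5.99% lower. Rora was the one gene called in both.

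Rora had 366, 361 and 393 rescaled CPM in the Mef2c-cKO CS libraries, against 682, 822, 821 and 843 in Mef2c f/f CS (log2 fold change -1.08, SE 0.11, limma adjusted p = 0.00167). Under SD it had 401, 317 and 453 in Mef2c-cKO and 669.8, 709 and 713 in Mef2c f/f mice (log2 fold change -0.85, SE 0.12, limma adjusted p = 0.00389). In both sleep states each Mef2c-cKO library was well below each control library. Groups that do not overlap made up 26.9% of all genes in CS and 40.3% in SD, and the Rora differences were several times their SE. The difference was -1.02 in CS (adjusted p = 0.00554) and -0.72 in SD (adjusted p = 0.00967) in limma after the correction for GC content, beside 9.4% and 13.6% of all genes called, and it stayed called without each library in turn, replicate 8 of Mef2c-cKO CS included (-1.12).

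Rorb had 159, 116 and 156 in Mef2c-cKO SD against 245, 249.9 and 298 in Mef2c f/f SD, a difference as large as that of Rora (log2 fold change -0.89, SE 0.13, limma adjusted p = 0.00438). All 3 Mef2c-cKO libraries were below the controls, and the call held after the correction for GC content (-0.76, limma adjusted p = 0.00607). Under CS it had 121, 161 and 196 in Mef2c-cKO against 233, 210.4, 189 and 195 in Mef2c f/f mice, and the groups overlapped (log2 fold change -0.40, SE 0.15, limma adjusted p = 0.134). The summed level of the 6 layer 4 markers in Mef2c-cKO mice was below all controls in CS and overlapped them in SD. In CS the log2 differences of the 6 were -1.26 for Rspo1, -0.80 for Kcnh5, -0.44 for Cux2 and -0.44 for Cux1, all called by limma, and -0.21 for Unc5d and 0.26 for Scnn1a, not called. In SD they were -1.56, -0.71, -0.62 and -0.49 for the same 4, all called, and 0.36 and -0.54 for Unc5d and Scnn1a, not called. Markers of excitatory neurons also had 2 of 6 called lower in SD. Their part in the differences of Rora and Rorb was not tested.

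Of the dimer partners, Arntl had 49.6, 52.4 and 40.8 in Mef2c-cKO CS, all below the 63.4, 64.0, 71.0 and 73.8 of Mef2c f/f CS (log2 fold change -0.52, SE 0.11, limma adjusted p = 0.0263). In SD it had 53.3, 37.9 and 60.4 against 66.0, 68.9 and 63.6, again without overlap but with a wider spread (log2 fold change -0.41, SE 0.15, limma adjusted p = 0.0942). Over 9 alternative fits in limma, edgeR and DESeq2 this difference was -0.41 to -0.34. The adjusted p went from 0.0401 to 0.146, so not every setting left Arntl uncalled in SD. Npas2 had 76.3, 95.7 and 106 in Mef2c-cKO CS against 118, 122, 142 and 147 (log2 fold change -0.51, SE 0.13, limma adjusted p = 0.0467), and 94.1, 81.1 and 106 against 106, 109 and 98.3 in SD, where the groups overlapped (log2 fold change -0.16, SE 0.10, limma adjusted p = 0.282). The CS calls of Arntl and Npas2 were close to the threshold, and both were mostly lost when single libraries were removed (7 fits). Arntl kept its call only without Mef2c f/f replicate 1 (the other fits, -0.59 to -0.41), and Npas2 only without that library or Mef2c-cKO replicate 8 (the other fits, -0.55 to -0.38). Without Mef2c-cKO replicate 8, the library high in microglial markers, Arntl differed by -0.41 (limma adjusted p = 0.0563) and Npas2 by -0.62 (0.0370). Clock was the gene nearest to 0 in both sleep states, at 194, 188 and 175 in Mef2c-cKO CS (0.022, SE 0.089) and 192, 218 and 182 in SD (-0.067, SE 0.079), and its sign in SD turned with the scaling (0.0083 in CPM as deposited).

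Within Mef2c-cKO mice, none of the 5 genes was called between CS and SD, beside 0.0234% of all genes called (3 of 12810 in limma, with 391 at an unadjusted p up to 0.05, and 25 in DESeq2). The log2 fold changes went from -0.14 (SE 0.20) for Rorb to 0.086 (SE 0.091) for Clock, and CS and SD libraries overlapped for every one of the 5, as for all but 9.05% of all genes. The interaction between genotype and SD, Mef2c-cKO minus Mef2c f/f, was called for none of the 5, beside 0.00778% of all genes (1 of 12860 in limma, 1005 at that unadjusted p, 59 in DESeq2). It was -0.49 (SE 0.22, limma adjusted p = 0.633) for Rorb and 0.35 (SE 0.18, limma adjusted p = 0.641) for Npas2, and a difference between the responses of the 2 genotypes was not shown.

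Other clock genes gave the setting. Their counts for WT SD in CPM as deposited stand beside 6106 of 12913 genes called higher on that scale. In WT SD, 2 of 7 tested repressor genes were higher and none lower (3 and 0 in CPM as deposited), a share near the 24.6% of all genes called higher, namely Per1 (0.61, limma adjusted p = 0.0123) and Per2 (0.57, 0.00134), which encode repressors of the CLOCK dimers, and the median of the list was 0.20 against 0.0377 over all genes. After the correction for GC content Per2 was still called (0.43, limma adjusted p = 0.000641) and Per1 was not (0.18, 0.136). Of 6 output factors, Tef (0.43) and Nfil3 (0.31), which encode bZIP transcription factors, were higher and none lower (4 and 0 in CPM as deposited), and neither was called after that correction (0.32 and 0.083). Arntl2, the paralogue of Arntl, was lower (-0.48, limma adjusted p = 0.00341) and stayed so after it (-0.31, 0.0157), but not in CPM as deposited (-0.21, 0.0524). Of 13 tested modifiers and cofactors, 1 was higher, the casein kinase gene Csnk1d (0.40), and 3 were lower, the kinase gene Gsk3b (-0.35), the deacetylase gene Sirt1 (-0.34) and the corepressor gene Ncor1 (-0.48). On rescaled CPM, 20.5% of all genes were called lower. In CPM as deposited the count of the list was 4 higher and 0 lower. After the correction the list had 1 gene called higher and 0 lower. None of Csnk1d, Gsk3b, Sirt1 and Ncor1 was called then, with Gsk3b and Sirt1 at -0.021 and -0.017. In RS against CS, none of the repressors, output factors or modifiers was called and Arntl2 was lower (-0.33). In CPM as deposited, 1 repressor and 3 modifiers were called higher there, beside 2350 of 12752 genes. Arntl2 was called neither on that scale nor after the correction (-0.15 and -0.19).

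In Mef2c-cKO against Mef2c f/f mice, the REV-ERB genes, whose products compete with ROR proteins at the RORE, were lower in SD. Under SD, 3 of 7 tested repressors were called lower and none higher, beside 5.99% of all genes called lower, with Nr1d1 at -0.47 (limma adjusted p = 0.00575), Nr1d2 at -0.56 (0.00575) and Ciart, a gene for a repressor of the dimers, at -0.66 (0.0305), and the median of the list was -0.34 against 0.0147 over all genes. All 3 were also called in CPM as deposited and after the correction for GC content, where Nr1d1 stood at -0.52 and Nr1d2 at -0.47 and Cry2 was called as well, which made 4 (-0.35). The output factor Hlf (-0.72) and Arntl2 (-0.34) were lower as well. After the correction neither was called, and the output factor Dbp was (-0.54). Under CS, Ciart (-0.77, limma adjusted p = 0.0483) and Btrc, a gene for a ubiquitin ligase subunit that acts on PER proteins (-0.32, 0.0435), were lower and no other listed gene was called. Both calls were lost in CPM as deposited (-0.68 and -0.22). In the SD responses of Mef2c f/f and of Mef2c-cKO mice none of these lists had a called gene on rescaled CPM. After the correction 1 output factor was called higher in Mef2c f/f mice, beside 1.17% of all genes called.

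Variation between mice of a group was compared last, after the mean of each of the 7 groups was removed, over 33 libraries and 11570 genes. These correlations are descriptions, since libraries share depth and base composition effects across genes. Rora and Npas2 varied together most among the 5 (r = 0.832), followed by Clock and Rorb (0.631), whereas Clock and Npas2, the alternative partners of BMAL1, had r = 0.0955 and Clock and Rora -0.161. Many genes outside the 5 were more alike. Ranked by r, Rora was at place 96 for Npas2 and Npas2 at 110 for Rora. Rorb was at place 2080 for Clock and Clock at 957 for Rorb. The 3 genes most like each member were Kctd1 (r = 0.783), Epha4 (0.738) and Sytl2 (0.723) for Arntl, Pcm1 (r = 0.956), Ktn1 (0.955) and Cul3 (0.953) for Clock and Phactr1 (r = 0.939), Ptprn2 (0.929) and Anks1b (0.918) for Npas2. For Rora they were Tmem178b (r = 0.941), Fam189a1 (0.932) and Tmem132d (0.923), and for Rorb Arhgap15 (r = 0.934), Mef2c (0.923) and Vmn2r86 (0.908). The genes most like Clock had transcripts of 38.5% to 42.2% GC, near the 40.9% of Clock. Those most like Rorb, with Mef2c, the targeted gene, second in order, likewise had 40.0% to 42.3% GC, near the 41.6% of Rorb. This did not hold for Rora (40.9% GC), whose most similar genes had 49.1%, 55.2% and 53.9%. For Arntl (47.7%) they had 59.0%, 45.6% and 45.4%, and for Npas2 (52.3%) 51.0%, 55.6% and 47.65%.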

How the data were processed

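Frontal cortex RNA, extracted with Trizol and an RNeasy kit, was sequenced as stranded, paired-end polyA libraries. Per the study's methods, Trimmomatic, STAR (mm10) and HTSeq on uniquely mapped reads came before the 1 deposited table of CPM, which the authors made with edgeR. The gene annotation used for counting is not given in the sources used here. Every deposited CPM value was a whole multiple of the value of 1 read (711645 of 711645 values within 0.01 of a whole read, 100%), so totals and reads could be recovered. Over the genes listed, WT columns summed to less than the full CPM total and the other columns to all of it. Columns were assigned to samples by name.

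A median-of-ratios factor for each library, from 11570 genes that reached a CPM of 1 in each of the 33 libraries, rescaled the CPM. The log2(rescaled CPM + 0.5) was fitted with limma 3.58.1 (R 4.3.3, moderated with a trend) on the groups compared. Genes entered if they reached a CPM of 1 in all replicates of 1 or more of those groups. This test fits CPM, in place of the study's DESeq2 on counts. Benjamini-Hochberg adjustment ran over all genes tested, and a call needed an adjusted p up to 0.05 and, except in interactions, a log2 fold change of 0.3 or more in size. The choices varied were the pseudocount (0.1 and 1), the scaling (CPM as deposited), the filter (none, or a CPM of 5) and the tool. Further fits had a correction of each library for GC content and transcript length by natural splines of 5 and 4 degrees of freedom, edgeR 4.0.16 or DESeq2 1.42.0 on recovered reads, joint fits of the WT or the Mef2c mice, a replicate block, or 1 library fewer. Transcript length and GC content came from GENCODE M21, in which 19473 symbols were found, 243 of them through a synonym. Scripts were tested on simulated data. The genes named are the 5 members, listed clock genes, Mef2c and the 3 genes most like each member by Pearson correlation, and the layer 4 markers were named singly after their values were seen. Members and lists were chosen with earlier results of these data known. Python 3.11.15 was used for ratios, sequences and figures.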

Additional observations from a re-analysis of the deposited data

Results flagged for a closer look

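Among 20 pairs of a gene and a group of 4 to 7 libraries, 2 had a library far from the others, where chance gives about 1 in 20. Clock in WT CS replicate 2 was the highest of its group at 374.7 rescaled CPM, a library that also had the lowest scaling factor, 0.7165, and the fall of Clock from CS to SD without it is given in the report. Rora in Mef2c f/f CS replicate 1 was the lowest of its group at 682.1 rescaled CPM.

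The response to SD differed between Mef2c f/f and WT mice, by the interaction test in limma, for Clock by 0.68 and for Rorb by 1.25 on the log2 scale (adjusted p = 0.0269 and 0.00730). The interaction was called for 15.1% of all genes, 9.35% in that direction. All 3 Mef2c f/f SD libraries were above all 4 CS libraries for both genes, and all 7 WT SD libraries were below all 6 WT CS libraries. Groups did not overlap for 17.4% of all genes in Mef2c f/f mice and 15.1% in WT mice. After the correction for GC content, Clock was no longer called (0.061, limma adjusted p = 0.742). Rorb still was (0.67), beside 1.71% of all genes. The part of depth and of other differences between the WT and Mef2c f/f libraries was not tested.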

How the results depend on the processing

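Pseudocounts of 0.1 and 1 changed no call or direction of the 5 genes or the ratios. In CPM as deposited, 1 of the 5 genes was called in WT CS to SD and 1 in CS to RS (5 and 2 on rescaled CPM), 2 rather than 3 were called in Mef2c-cKO against Mef2c f/f mice in CS (Npas2 lost at -0.41), and the sign turned for Rora in SD to RS (-0.051), Clock in Mef2c-cKO against Mef2c f/f mice in SD (0.0083) and Npas2 in the interaction of Mef2c f/f and WT mice (-0.18). The share of called genes that were higher went from 54.6% to 88.4% in CS to SD, from 53% to 88.2% in CS to RS, from 41.3% to 71.8% and from 60.3% to 77.5% in Mef2c-cKO against Mef2c f/f mice in CS and SD, and from 61.8% to 14.8% in that interaction. With no filter and with edgeR, 1 of the 5 was called in CS to RS, and DESeq2 called 2 in Mef2c f/f CS to SD (0 in limma). Over 10 alternative fits in limma, edgeR and DESeq2, the adjusted p of Clock in CS to RS went from 0.0166 to 0.722.

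After the correction for GC content, 2 of the 5 were called in CS to SD, 0 in CS to RS and 1 in the interaction of Mef2c f/f and WT mice (2 before). The sign turned for Clock in CS to SD (0.029) and CS to RS (0.029), Rora in CS to SD (0.0042), SD to RS (-0.091) and that interaction (-0.26), and Clock in Mef2c-cKO against Mef2c f/f mice in SD (0.062). The ratio of Npas2 to Clock turned to -0.52 in CS to SD and -0.28 in CS to RS, and that of Arntl to Clock to -0.23, -0.15 and 0.082 in CS to SD, CS to RS and SD to RS.

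Pairing by replicate number was neither shown nor excluded. Deviations from group means correlated from -0.726 to 0.66 between same-numbered libraries, and only some were most like their own number. With the replicate block, 1 of the 5 was called in CS to SD and 0 in the interaction of Mef2c f/f and WT mice, and the sign turned for Arntl in Mef2c f/f CS to SD (0.0014) and for Clock and Rorb in Mef2c-cKO CS to SD (-0.031 and 0.17). Mef2c-cKO and Mef2c f/f mice share no replicate numbers within a sleep state, so no block was fitted there.

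Leaving out each library in turn, 4 to 5 of the 5 were called in CS to SD, 0 to 3 in CS to RS, 0 to 2 in Mef2c f/f CS to SD, 1 to 3 and 2 to 3 in Mef2c-cKO against Mef2c f/f mice in CS and SD, 1 to 2 in the interaction of Mef2c f/f and WT mice and 0 in the other 3 comparisons. In CS to RS the count was 0 without any of WT CS replicates 1 to 3 or RS replicates 3 to 6 and 12. In Mef2c-cKO against Mef2c f/f mice in CS it was 1 (3 with all libraries) without Mef2c-cKO replicate 5 or 7 or Mef2c f/f replicate 2, 3 or 4, and in the interaction of Mef2c f/f and WT mice 1 without Mef2c f/f CS replicate 2 or 4 or SD replicate 1 or 3. Clock passed in CS to RS in 5 of 13 such fits, Npas2 and Rorb in Mef2c f/f CS to SD without CS replicate 1 (-0.39 and 0.41), Arntl in Mef2c-cKO against Mef2c f/f mice in SD without Mef2c-cKO replicate 7 (-0.55), and Clock lost its interaction in 4 of 20. Signs varied for Rora in SD to RS (-0.048 to 0.15), Arntl in Mef2c f/f CS to SD (-0.071 to 0.0014), Clock in Mef2c-cKO against Mef2c f/f mice in CS (-0.022 to 0.065), and in Mef2c-cKO CS to SD for Arntl (-0.073 to 0.26), Npas2 (-0.11 to 0.12), Rora (-0.067 to 0.19) and Rorb (-0.32 to 0.026). They also varied for Arntl in the interaction of Mef2c-cKO and Mef2c f/f mice (-0.035 to 0.30) and for the ratios of Npas2 to Clock in CS to SD (-0.031 to 0.17) and Arntl to Clock in SD to RS (-0.059 to 0.0060).

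In CS to SD, 5826 genes became 2691 with the GC correction and 287 with the block. In CS to RS, 2232 became 385 with no filter, 510 with the GC correction, 3420 in DESeq2, 4018 over all WT groups and 4279 with the block, and 0 to 3740 without 1 library. In SD to RS, 3 became 54 in DESeq2, 8 with the GC correction, 1 in CPM as deposited and 0 with no filter, a CPM minimum of 5 or the block. In Mef2c f/f CS to SD, 5 became 0 with no filter, 145 with the GC correction, 9 in edgeR, 466 in DESeq2, 12 with a CPM minimum of 5, and 13 with a pseudocount of 1 or the block. In Mef2c-cKO CS to SD, 3 became 6 with no filter, 25 in DESeq2, 9 over all groups and 1 with the block. In Mef2c-cKO against Mef2c f/f mice, 973 became 2095 in DESeq2 and 2167 over all groups in CS, and 1927 became 1280 with a CPM minimum of 5 and 1019 over all groups in SD. In the interactions, 1 became 4, 59 and 3 with the GC correction, DESeq2 and the block for Mef2c-cKO, and 1983 became 3426, 1142, 216 and 0 in CPM as deposited, with no filter, the GC correction and the block for Mef2c f/f against WT mice. The causes were not tested.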
